A study of Homo sapiens with 7 samples.

Results

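The genes described here encode the DNA replication machinery. They are 51 genes of the 33694 in the deposited table, taken by name: factors that license origins, the replicative helicase and its activators, the DNA polymerases, the sliding clamp with its loader and the enzymes that work on it, replication protein A, enzymes of deoxynucleotide supply and fork protection factors. All 51 were found by symbol, and all 51 passed the filter on low counts. They were measured in HK-2, a human cell line that was derived from proximal tubule cells of a kidney and made immortal, by counting the 3' ends of messenger RNA. Cells received 50 nM siRNA and were lysed 96 h later. The siRNA was scrambled in 4 libraries (labelled WT, replicates 1 to 4) and directed at GLUT2, the glucose transporter encoded by SLC2A2, in 3 libraries (labelled GLUT2-KD, replicates 2 to 4). Both groups were grown in DMEM/F12 medium with serum and transfected with the same reagent. The siRNA sequences are not given in the labels, and all libraries come from a single cell line. The comparison asks how messenger RNA levels differ between the siGLUT2 and the scrambled libraries.

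Replication starts at sites bound by the origin recognition complex. CDC6 and CDT1 load a ring of MCM2 to MCM7 there before S phase, and geminin (GMNN) binds CDT1 so that no site is loaded again. The kinase CDC7 with DBF4, and MCM10, help CDC45 and GINS join the ring, which then unwinds DNA ahead of the polymerases. Many of these genes are transcribed at the border of G1 and S phase by E2F factors, and in the adult kidney most tubule cells are quiescent, whereas cultured lines such as HK-2 divide.

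Total counts were 5654957 to 8455963 in the scrambled and 5881366 to 6914302 in the siGLUT2 libraries, and the lowest count of any of the 51 genes in any library was 29. SLC2A2 had 13, 13, 7 and 17 counts in scrambled replicates 1 to 4 and 0 in each siGLUT2 library. The siGLUT2 libraries held fewer genes with a count (13433 to 13891, against 14844 to 15036) and a larger share of mitochondrially encoded transcripts (7.04% to 7.56%, against 4.91% to 5.53%), with 7 of those 13 mitochondrial genes higher and 1 lower by the test used below. With the mitochondrial genes left out before scaling, 28 of the 51 genes fell and 1 rose, with a median log2 fold change of -0.613. Whether these shifts play a part in the results below in other ways was not tested. Of 15 proximal tubule markers 5 passed the filter, with a summed level of 107 to 130 CPM in scrambled and 148 to 161 CPM in siGLUT2 libraries, and LRP2, SLC22A6 and SLC22A8 were among those at 0 throughout. By the test used below, MME and GGT1 rose and 0 of these markers fell. The 8 epithelial markers summed to 1510 to 1630 CPM in scrambled and to 1100 to 1250 CPM in siGLUT2 libraries, without overlap, and KRT8, KRT18 and KRT19 fell. EPCAM, PAX8, CDH1 and CDH2 did not pass that test, and PAX2 did not pass the filter. The groups did not overlap for CDH1, lower in siGLUT2 libraries, and for CDH2, higher in them. All 5 endothelial markers were at 0. Leukocyte markers (PTPRC, CD3E and LYZ at 0, CD68 detected) summed to 13.7 to 18.8 CPM and 25.7 to 28.3 CPM, and fibroblast markers (COL3A1 at 0) to 10.4 to 15.9 CPM and 17.5 to 25.3 CPM. CD68 and the fibroblast marker COL1A1 rose by the same test, and 0 markers of these lists fell.

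Replication genes fell after siGLUT2. Of the 51 genes, 28 fell, 1 rose and 22 did not pass the test. In percent, 54.9% fell, where 14.4% of all 12404 tested genes fell, 13.9% rose and 28.3% changed in either direction. Here and below, CPM is counts scaled by TMM to a common library total, a fold change is log2 siGLUT2 over scrambled ± SE, and a gene is said to fall or rise where edgeR's quasi-likelihood test gave a Benjamini-Hochberg adjusted p below 0.05 over all tested genes. The median fold change of the 51 genes was -0.62, that of all tested genes -0.0029. The siGLUT2 libraries lay below every scrambled library for 29 of the 51 genes (56.9%) and above for 0, while this held for 18.1% and 17.1% of all tested genes. Falls of at least 2-fold were seen in 4 of the 51 genes, MCM5, LIG1, CDT1 and MCM4, and in 4.38% of all tested genes. Whether or not the test was passed, 7.84% of the 51 genes and 6.91% of all tested genes had a fold change of -1 or lower. At -1.1 or lower the shares were 3.92% and 5.71%. The other 24 falls lay between 1.3-fold (PCNA) and 1.99-fold (POLA1).

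**Figure D1:**
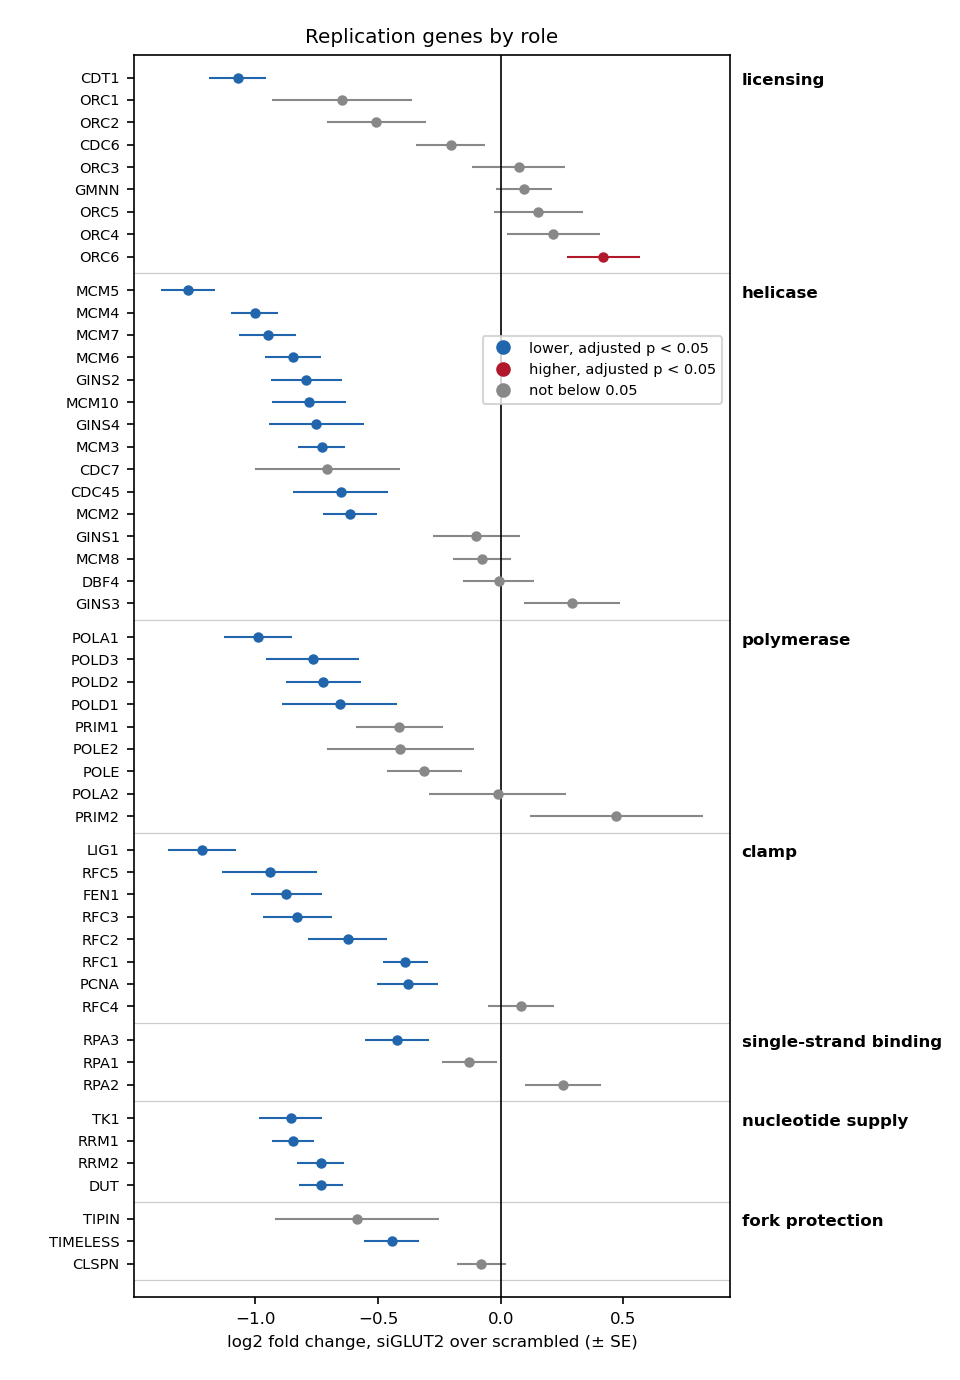
Fold change of each of the 51 replication genes, as log2 siGLUT2 over scrambled (x axis, bars are SE), grouped by role and ordered by size within it. Blue marks the 28 genes that fell, red ORC6, which rose, and grey the 22 that did not pass an adjusted p of 0.05.

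**Figure D2:**
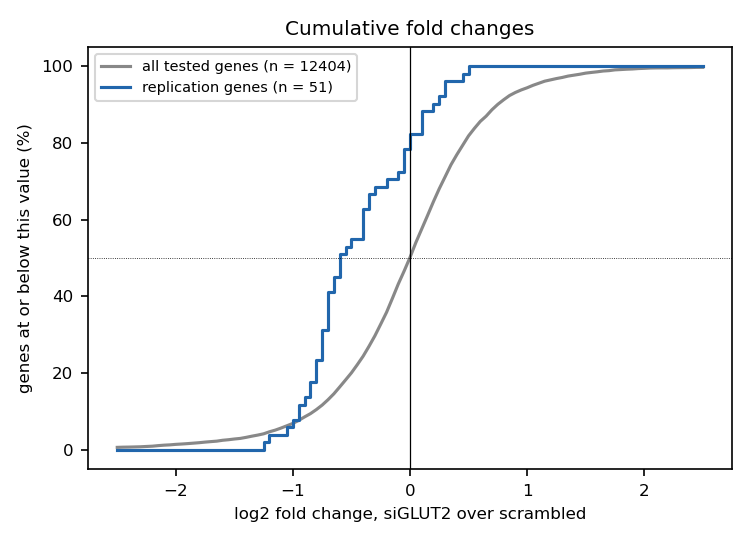
Percent of genes (y axis) with a log2 fold change at or below the value on the x axis, for all 12404 tested genes (grey) and the 51 replication genes (blue). At a log2 fold change of -0.5 the curves stand at 20.1% of all tested genes and 54.9% of replication genes.

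The 3 siGLUT2 libraries shared the shift. Summed over the 51 genes, the level was 6166, 5990, 6123 and 6039 CPM in scrambled replicates 1 to 4 and 3921, 4164 and 4092 CPM in siGLUT2 replicates 2 to 4. In these 3 libraries 41, 43 and 41 of the 51 genes lay below their scrambled mean, and the median log2 ratio to that mean was -0.62, -0.46 and -0.57. In scrambled replicates 1 to 4, 20, 28, 25 and 24 genes lay below it. By the fit, 82.35% of the 51 genes and 50.15% of all tested genes had a fold change of 0 or lower. In a bulk sample, fewer cells in S phase and less of these RNAs per cell cannot be told apart.

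**Figure D3:**
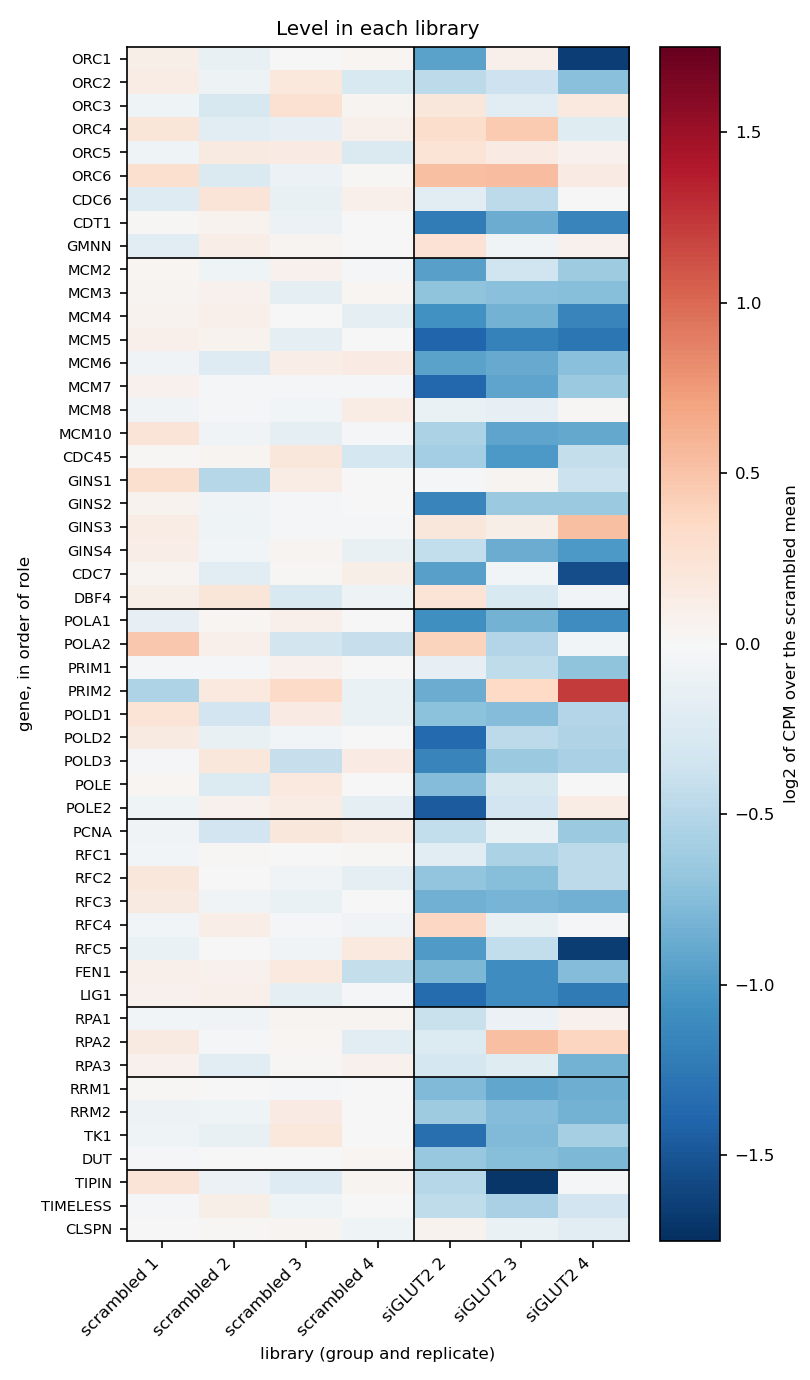
Level of each replication gene (rows, in order of role) in each library (columns), as log2 of CPM over the mean of the 4 scrambled libraries. Blue fills most of the 3 siGLUT2 columns, with 41, 43 and 41 of 51 genes below the scrambled mean, and a few genes such as ORC1, CDC7 and TIPIN differ between those 3 libraries.

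Promoters were searched for words of the E2F type, since E2F factors transcribe many replication genes whether or not they change here. The words were TTTCCCGC, TTTGGCGC, TTTCGCGC and TTTGCCGC on both strands, where a word and its neighbour may overlap. The windows were 250 bases before to 50 bases after the gene start, from RefSeq on GRCh38.p14, and 45 of the 51 genes had one (not MCM4, MCM5, GINS4, POLD3, RPA2 and RPA3). A word stood in 19 of the 45 windows (42.2%), in 548 of 9973 windows of tested genes (5.49%) and in 1164 of all 35116 windows (3.31%). Among windows of genes that fell, 10 of 23 held a word (43.5%), and among those of the other genes 9 of 22 (40.9%). By role they stood in 8 of 12 helicase windows, 4 of 8 polymerase windows, 3 of 8 clamp windows and 3 of 9 licensing windows. They stood in 1 of 3 fork protection windows, 0 of 1 single-strand binding windows and 0 of 4 nucleotide supply windows. All 4 nucleotide supply genes fell. A match is a description of letters and not a bound site, and a window without these exact words may still hold a site. Whether E2F factors play a part in the falls was not tested. The stretches below, of 30 bases each, show the word nearest the start (in capitals, some as the reverse complement) in the 10 genes that fell and hold one.
MCM2 (chr3:127598402-127598431, plus strand): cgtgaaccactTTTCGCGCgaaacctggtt
MCM3 (chr6:52284728-52284757, minus strand): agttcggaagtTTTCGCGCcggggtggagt
MCM6 (chr2:135876511-135876540, minus strand): ggtcaggtttgGCGCGAAAtctccagctcc
MCM7 (chr7:100101388-100101417, minus strand): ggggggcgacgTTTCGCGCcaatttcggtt
GINS2 (chr16:85688967-85688996, minus strand): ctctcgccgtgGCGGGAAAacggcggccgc
CDT1 (chr16:88803743-88803772, plus strand): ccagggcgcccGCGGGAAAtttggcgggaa
POLA1 (chrX:24693770-24693799, plus strand): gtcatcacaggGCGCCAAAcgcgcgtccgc
PCNA (chr20:5126663-5126692, minus strand): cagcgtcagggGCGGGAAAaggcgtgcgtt
RFC3 (chr13:33818083-33818112, plus strand): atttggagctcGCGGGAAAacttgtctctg
LIG1 (chr19:48170440-48170469, minus strand): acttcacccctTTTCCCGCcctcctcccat

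CDC6 and CLSPN, picked after their values were seen, are shown because they hold such a word and did not pass the test.
CDC6 (chr17:40287875-40287904, plus strand): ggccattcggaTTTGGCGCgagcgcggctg
CLSPN (chr1:35769965-35769994, minus strand): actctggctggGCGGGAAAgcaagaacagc

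**Figure D4:**
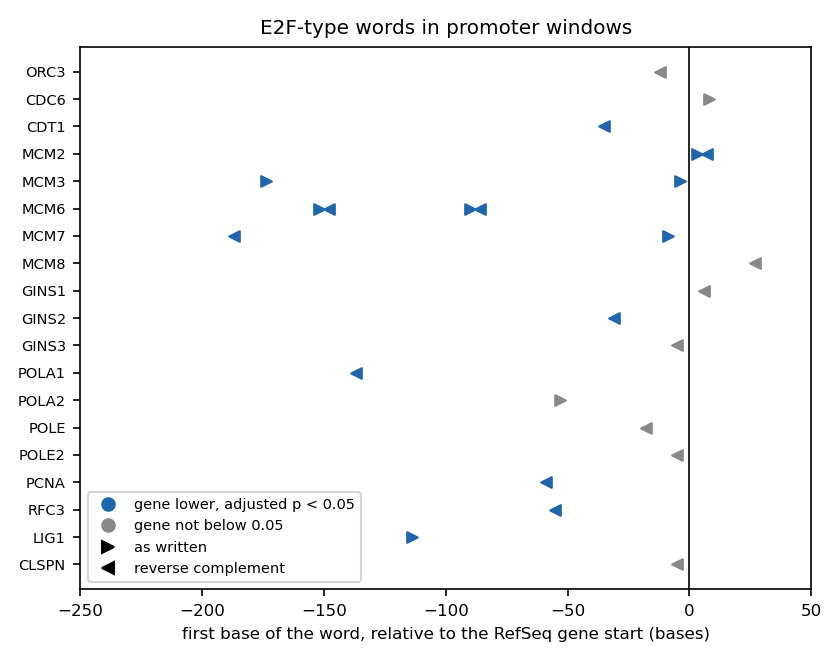
First base of each E2F-type word (x axis, bases from the RefSeq gene start) in the 19 replication genes that hold one, with triangles pointing right for the word as written and left for its reverse complement. Genes that fell (blue) and genes that did not pass (grey) both hold words, and 19 of the 25 words begin no more than 100 bases before the start.

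Licensing factors did not move as a group. Of 9, 1 fell (11.1%) and 1 rose, near the shares over all tested genes (14.4% and 13.9%), and the median was 0.07. CDT1, which loads the MCM ring (chromosome 16, 88803213 to 88809258, plus strand), was at 158, 163, 145 and 157 CPM in scrambled replicates 1 to 4 and at 66.7, 85.3 and 70.1 CPM in siGLUT2 replicates 2 to 4. The groups lay far apart, and CDT1 fell by 52.5% (-1.07 ± 0.11, adjusted p = 3.47e-07). Its inhibitor geminin was at 102, 126, 120 and 117 CPM and at 139, 111 and 122 CPM, with overlapping groups (0.09 ± 0.11, adjusted p = 0.591). The ratio of CDT1 to GMNN, as a ratio of CPM not scaled by length, was 1.35 ± 0.149 (SD, n = 4) after scrambled siRNA and 0.607 ± 0.146 (SD, n = 3) after siGLUT2. It follows from the CDT1 and GMNN levels above and is no separate result. CDC6, the partner of CDT1 in loading, had 73.4 to 100.3 CPM in scrambled and 62.9 to 86.1 CPM in siGLUT2 libraries (-0.20 ± 0.14, adjusted p = 0.304).

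The origin recognition complex held the only gene that rose. ORC6, its smallest subunit (chromosome 16, 46689643 to 46698394, plus strand), was at 67.8, 47.2, 52.0 and 56.9 CPM in scrambled and at 80.6, 81.7 and 61.7 CPM in siGLUT2 libraries. Scrambled replicate 1 lay above siGLUT2 replicate 4, so the groups overlapped, and the rise (0.42 ± 0.15, adjusted p = 0.0395) was lost when any of 5 libraries was left out: scrambled replicate 2 (adjusted p = 0.134), 3 (0.105) or 4 (0.078), or siGLUT2 replicate 2 (0.0895) or 3 (0.139). ORC3, ORC4 and ORC5, core subunits, had fold changes of 0.07 ± 0.19, 0.21 ± 0.19 and 0.15 ± 0.18 and did not pass. ORC2 was at 30.9, 26.5, 32.1 and 23.5 CPM and at 20.6, 22.0 and 17.1 CPM, without overlap but with an adjusted p of 0.0648 (-0.51 ± 0.20). ORC1, a subunit that binds and hydrolyses ATP and whose level varies over the cell cycle, was at 23.2 to 27.1 CPM in scrambled libraries. In siGLUT2 replicates 2, 3 and 4 it was at 13.3, 27.1 and 8.08 CPM. Replicate 3 thus matched the scrambled level and the others lay below it (-0.65 ± 0.29, adjusted p = 0.0961), and without siGLUT2 replicate 3 the adjusted p was 0.00178 (-1.25). Here and below, where a gene that did not pass is shown without a siGLUT2 library, that library was picked after its value was seen. A lower adjusted p then follows from the choice, and such a gene is not counted as changed. With all libraries kept, the adjusted p of ORC1 was 0.031 in limma-voom and 0.0374 there with a quality weight per group. In DESeq2 it was 0.124.

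**Figure D5:**
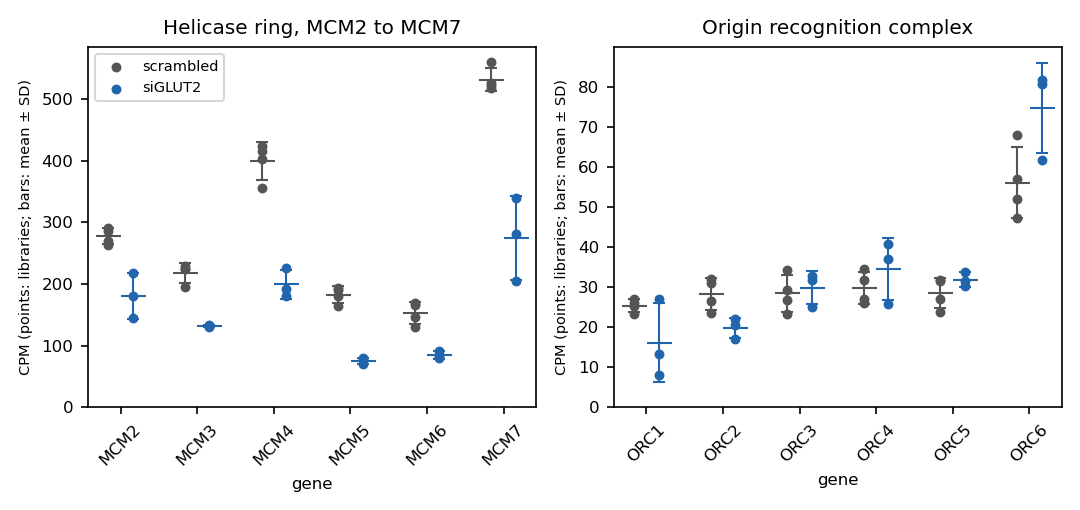
CPM (y axes, each from 0) of the 6 helicase ring genes (left) and the 6 origin recognition complex genes (right) in the 4 scrambled (grey) and 3 siGLUT2 (blue) libraries; points are libraries and bars the mean ± SD. The siGLUT2 points lie below all scrambled points for each ring gene, and of the ORC genes only for ORC2.

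All 6 subunits of the helicase ring fell, and their groups did not overlap. Their median fold change was -0.90. MCM5 (chromosome 22, 35400063 to 35425430, plus strand) was at 194, 191, 164 and 181 CPM in scrambled and at 69.9, 80.1 and 76.1 CPM in siGLUT2 libraries. MCM5 fell by 58.6%, the lowest fold change of the 51 genes (-1.27 ± 0.11, adjusted p = 1.35e-08). MCM4 was at 416, 423, 403 and 355 CPM and at 192, 226 and 180.1 CPM, and fell by 50.1% (adjusted p = 8.09e-08). MCM7 was at 559.7, 523, 518 and 525 CPM and at 204, 281 and 339 CPM (-0.95 ± 0.12), with a wider spread between the siGLUT2 libraries than between the scrambled ones. MCM6 was at 147, 131, 166 and 168 CPM and at 80.3, 82.9 and 91.8 CPM (-0.85 ± 0.11). MCM3 was at 225, 229.7, 195 and 224 CPM and at 134, 131 and 129.8 CPM (-0.73 ± 0.10). MCM2 fell least of the 6, from 285, 263, 291 and 270.0 CPM to 144, 218 and 180.3 CPM (-0.62 ± 0.11, adjusted p = 1.95e-04). Summed over the ring, the level was 1762 ± 45.5 CPM (SD, n = 4) and 947 ± 107 CPM (SD, n = 3), whereas the 6 ORC genes summed to 196 ± 15.5 CPM and 207 ± 28.3 CPM.

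Of the helicase genes outside the ring, 4 of 9 fell and 0 rose. In this role, among polymerase genes and among clamp genes, edgeR at an unadjusted p below 0.05, DESeq2 and limma-voom also gave 0 rises. MCM10, which acts in origin firing, was at 84.5, 69.3, 64.3 and 70.6 CPM and at 49.0, 38.2 and 38.9 CPM (-0.78 ± 0.15, adjusted p = 4.05e-04). CDC45, which joins the ring at firing, was at 38.3, 39.1, 43.4 and 30.6 CPM and at 25.2, 18.8 and 28.4 CPM (-0.65 ± 0.19, adjusted p = 0.014). Its fall was lost without scrambled replicate 3 (adjusted p = 0.0571) or siGLUT2 replicate 3 (0.0767). The 4 GINS subunits, which form a tight complex in the active helicase, split: GINS2 fell from 82.5, 75.8, 77.8 and 78.9 CPM to 35.4, 50.3 and 50.4 CPM (-0.79 ± 0.15), and GINS4 fell from 37.2, 33.1, 35.4 and 31.5 CPM to 25.3, 18.8 and 17.1 CPM (-0.75 ± 0.19, adjusted p = 0.00556). GINS1 had a fold change of -0.10 ± 0.18 and GINS3 of 0.29 ± 0.20, and neither passed. Whether the subunits differ from each other was not tested. MCM8, which works in recombination and not in the ring, was at 82.4 to 93.9 CPM and 78.2 to 87.5 CPM (-0.08 ± 0.12). DBF4, the activator of CDC7, was at 67.1 to 93.2 CPM and 67.1 to 95.4 CPM (-0.0088 ± 0.14). CDC7 itself was at 16.4 to 19.98 CPM in scrambled libraries and at 9.69, 18.1 and 6.37 CPM in siGLUT2 replicates 2, 3 and 4, where replicate 3 again matched the scrambled level (-0.71 ± 0.30, adjusted p = 0.0787, and 0.00515 without siGLUT2 replicate 3). With all libraries kept, its adjusted p was 0.0411 in limma-voom, 0.0658 there with a quality weight per group and 0.0996 in DESeq2.

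Among the polymerase genes 4 of 9 fell and 0 rose. POLA1, the catalytic subunit of the polymerase that starts each new strand with primase (chromosome X, 24693919 to 24996986, plus strand), was at 71.5, 81.4, 84.6 and 79.4 CPM and at 37.8, 44.7 and 37.1 CPM. It fell by 49.6% (-0.99 ± 0.14, adjusted p = 1.2e-05). The other 3 genes of that complex did not pass: its B subunit POLA2 (-0.01 ± 0.28), the primase catalytic subunit PRIM1 (-0.41 ± 0.18, adjusted p = 0.0905) and the primase large subunit PRIM2 (0.47 ± 0.35). PRIM2 was at 6.46, 15.04 and 27.7 CPM in siGLUT2 replicates 2 to 4, on both sides of the scrambled range of 8.11 to 14.9 CPM. Without siGLUT2 replicate 2 PRIM2 (0.84, adjusted p = 0.0325) and PRIM1 (-0.57, adjusted p = 0.0241) passed, in opposite directions, and without siGLUT2 replicate 4 the PRIM2 value was -0.14.

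Of the 4 subunits of polymerase delta, which copies the lagging strand, the 3 among the 51 genes fell. The fourth, POLD4, is outside the 51 and was at 10.4 to 16.8 CPM in scrambled and 12.8 to 19.96 CPM in siGLUT2 libraries (0.28 ± 0.26, adjusted p = 0.47). POLD2 was at 176, 145, 154 and 159.9 CPM and at 62.1, 115 and 110.0 CPM (-0.72 ± 0.15). POLD3 was at 47.8, 55.5, 36.7 and 53.6 CPM and at 21.8, 30.8 and 32.6 CPM (-0.77 ± 0.19). The catalytic subunit POLD1 was at 25.7, 17.3, 24.2 and 20.2 CPM and at 13.3, 12.9 and 15.4 CPM (-0.66 ± 0.23, adjusted p = 0.0395). Its groups did not overlap. The fall was lost without scrambled replicate 1 (adjusted p = 0.131), 3 (0.103) or 4 (0.0659) or siGLUT2 replicate 2 (0.0643) or 3 (0.0982), and in limma-voom with a spread for each group (0.0939). Of polymerase epsilon, which copies the leading strand, neither POLE (-0.31 ± 0.15, adjusted p = 0.135) nor POLE2 (-0.41 ± 0.30, adjusted p = 0.333) passed. Of its accessory subunits outside the 51 genes, POLE3 fell (-0.98 ± 0.10) and POLE4 did not pass (0.13 ± 0.12, adjusted p = 0.433). POLD4 and POLE4 were named after their values were seen. POLE was at 51.01, 71.3 and 86.2 CPM in siGLUT2 replicates 2 to 4 against 73.3 to 97.5 CPM in scrambled libraries, and it passed without siGLUT2 replicate 4 (-0.50, adjusted p = 0.014).

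The clamp genes fell with a single exception. Of 8, 7 fell and 0 rose, and the median was -0.73. LIG1, the ligase that seals Okazaki fragments (chromosome 19, 48115445 to 48170603, minus strand), was at 91.4, 92.8, 78.2 and 85.6 CPM in scrambled and at 34.4, 40.8 and 37.0 CPM in siGLUT2 libraries. It fell by 57.0% (-1.22 ± 0.14, adjusted p = 7.66e-07). FEN1, the nuclease that trims the flaps before ligation, was at 109, 108, 116 and 76.9 CPM and at 59.3, 48.3 and 60.5 CPM (-0.87 ± 0.15). Exons annotated to FADS2 on the same strand and to TMEM258 on the other overlap FEN1, so some of its reads may be theirs. PCNA, the sliding clamp itself, was at 211, 175, 253 and 242 CPM and at 163, 204 and 140.5 CPM. Its groups overlapped (-0.38 ± 0.12, adjusted p = 0.0259), and the fall was lost without scrambled replicate 1 (adjusted p = 0.0526), 3 (0.112) or 4 (0.0989) or siGLUT2 replicate 4 (0.113).

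Replication factor C, which opens PCNA and places it on DNA, has a large subunit, RFC1, and the small subunits RFC2 to RFC5. RFC1 was at 371, 391, 386 and 388 CPM and at 338, 263 and 279 CPM (-0.39 ± 0.09, adjusted p = 0.00266), a small fall with no overlap. RFC3 was at 78.2, 66.8, 64.5 and 69.9 CPM and at 39.1, 39.9 and 38.9 CPM (-0.83 ± 0.14), with siGLUT2 libraries close to each other. RFC5 was at 74.98, 80.4, 77.6 and 91.3 CPM and at 40.6, 60.0 and 25.6 CPM (-0.94 ± 0.19), with a wide spread among siGLUT2 libraries. RFC2 fell by 35.1% (-0.62 ± 0.16). RFC4 was the exception, with 70.1, 78.4, 71.6 and 69.7 CPM and 93.0, 66.2 and 71.2 CPM (0.08 ± 0.14, adjusted p = 0.702).

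Replication protein A coats the unwound strands, and 1 of its 3 subunits fell. RPA3, the smallest, was at 136, 114, 131 and 136 CPM and at 105, 111 and 73.2 CPM (-0.42 ± 0.13, adjusted p = 0.0172). That fall was lost without scrambled replicate 1 (adjusted p = 0.0593) or 4 (0.0582) or siGLUT2 replicate 4 (0.0896). RPA1, the large subunit, was at 132 to 142 CPM and 105 to 144 CPM (-0.13 ± 0.11). RPA2 was at 57.7 to 73.9 CPM in scrambled libraries and at 55.8, 95.02 and 85.3 CPM in siGLUT2 replicates 2 to 4 (0.25 ± 0.16, adjusted p = 0.242), and without siGLUT2 replicate 2 it passed as higher (0.45, adjusted p = 0.0116).

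The 4 genes of deoxynucleotide supply among the 51 fell, without overlap between groups. Ribonucleotide reductase makes deoxynucleotides from ribonucleotides. Its large subunit RRM1 was at 364, 360.0, 353 and 363 CPM in scrambled and at 211, 191 and 199 CPM in siGLUT2 libraries. Libraries of each group lay close together, and RRM1 fell by 44.4% (-0.85 ± 0.08, adjusted p = 1.29e-07). The small subunit RRM2 was at 211, 212, 246 and 226 CPM and at 145, 132 and 126 CPM (-0.73 ± 0.10). DUT, which breaks down dUTP so that uracil stays out of DNA, was at 226, 234, 231 and 237 CPM and at 147, 138 and 134 CPM (-0.73 ± 0.09). TK1, the salvage kinase for thymidine, was at 281, 269, 336 and 294 CPM and at 118, 172 and 198 CPM (-0.86 ± 0.13), the widest spread of the 4 in siGLUT2 libraries. RRM2 has 3 and DUT 8 annotated pseudogenes that can share reads.

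Of the fork protection factors, which travel with the helicase and pass on stress signals, TIMELESS fell from 126, 138, 121 and 127 CPM to 93.9, 86.2 and 102 CPM (-0.45 ± 0.11, adjusted p = 0.00399). Its partner TIPIN was at 11.7 to 15.95 CPM in scrambled libraries and at 9.69, 4.19 and 13.4 CPM in siGLUT2 replicates 2 to 4 (-0.59 ± 0.33, adjusted p = 0.206, and 0.0365 without siGLUT2 replicate 4). CLSPN, the mediator of the checkpoint kinase CHK1, was at 147 to 160.4 CPM and 135 to 163 CPM, with overlapping groups (-0.08 ± 0.10, adjusted p = 0.607).

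Some genes share sequence or position with others. In GENCODE release 29, exons of another gene overlap 7 of the 51 genes on the same strand and 18 on the opposite strand, and 9 have annotated pseudogenes, none of which has a row of its own in the table. Since the strand setting of the counting is not given in the sources used here, such reads cannot be told apart. Of the 24 genes with none of these, 12 fell and 1 rose, with a median of -0.53. The 7-base words GACCTTA and ACCTTAA, picked earlier by a scan of 3' UTRs against these same fold changes, stood in the longest annotated 3' UTR of 2 of the 51 genes, ORC4 and RFC5, each with ACCTTAA. Among the other 49 genes 27 fell and 1 rose. Since the words came from these fold changes, such counts cannot show whether they play a part, which was not tested. The share of all tested genes that hold them is not reported here.

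Further genes of the same processes were taken from 2 other lists. Of 28 replication factors outside the 51, 9 fell (32.1%, against 14.4% of all tested genes) and 1 rose, with a median of -0.38. The polymerase epsilon accessory subunit POLE3 was at 187 ± 4.24 CPM and 94.6 ± 2.22 CPM (-0.98 ± 0.10, adjusted p = 1.3e-07). RNASEH2A, the catalytic subunit that removes RNA from DNA, changed by -0.97 ± 0.17, the stem-loop binding protein of histone messenger RNA SLBP by -0.76 ± 0.16 and the replication timing factor RIF1 by -0.44 ± 0.09. Of 21 other genes of nucleotide supply 8 fell (38.1%) and 1 rose, with a median of -0.19. CAD, which starts pyrimidine synthesis, went from 94.4 ± 6.09 to 29.9 ± 3.03 CPM (-1.65 ± 0.14, adjusted p = 1.05e-08). Thymidylate synthase TYMS changed by -0.63 ± 0.10, thymidylate kinase DTYMK by -0.72 ± 0.12 and the purine synthesis enzyme PAICS by -0.65 ± 0.10.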

How the data were processed

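Libraries of HK-2 RNA were made from 125 ng of total RNA by a commercial digital 3' mRNA-seq service and read from 1 end over 100 cycles, as the labels' protocols state. The authors deposited raw counts per Ensembl gene for 7 libraries. The submitters' processing notes name STAR, HTSeq, edgeR and hg38 with no role or version. Not given in the sources used here are the strand setting, the annotation release and any use of molecular identifiers. Of 33694 rows, 0 named no gene and 0 value columns belonged to no sample.

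Groups came from sample titles. All 7 libraries entered 1 fit with edgeR 4.0.16 (R 4.3.3). Genes were kept by filterByExpr with a count of 10 and a total of 15 as minima and scaled by TMM. Dispersions and the quasi-likelihood fit were robust, the test was glmQLFTest with group as its only term, and p-values were adjusted by Benjamini-Hochberg over 12404 genes with a threshold of 0.05. CPM uses TMM-scaled totals, and an SE is the fold change divided by the square root of F. Replicate libraries differed by more than sampling noise (the median chi-square of pairs was 4.44 to 13.1 times its expectation), and the labels call them biological replicates of 1 cell line. A permutation test over the 35 splits cannot go below 0.0286 and was not used. Scripts were tested on simulated data. Positions came from GENCODE release 29 and promoters from RefSeq.

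The 51 genes, the lists (other replication factors, other nucleotide supply, E2F and pocket proteins, G1 cyclins with kinases and inhibitors, translesion and repair polymerases, mitosis, mitochondrially encoded genes and cell markers) and the tests were chosen with earlier results of these data known. All 51 genes are named, and from each other list at most 4 tested genes with the smallest adjusted p, apart from genes said to be named after their values were seen. Cell markers are a further exception: those named, with or without counts, were picked after their values were seen. Alternatives were DESeq2 1.42.0, limma-voom 3.58.1 with and without a quality weight per group, other scalings, filters, thinning, a replicate block, each library left out, an adjusted p of 0.01, glmTreat and non-robust estimation. The Walker A stretches of MCM proteins, planned at the outset, are not reported here.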

Additional observations from a re-analysis of the deposited data

Results flagged for a closer look

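In the scrambled group, MCM3 stood at 195 CPM in replicate 3, while the other 3 libraries lay between 224 and 229.7 CPM, a gap of 0.84 of the whole range. It was the only such case among the 51 replication genes, each examined over the 4 scrambled libraries, and chance alone flags about 1 in 20. The siGLUT2 group, with 3 libraries, was not examined this way. All 3 siGLUT2 libraries lay below that value, between 129.8 and 134 CPM.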

How the results depend on the processing

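Over 21 alternatives, 23 to 30 replication genes fell and 0 to 2 rose, and their median fold change lay between -0.63 and -0.54. Of the 28 genes that fell, 24 did so in every alternative at an adjusted p of 0.05 without a fold threshold; the exceptions were CDC45, POLD1, PCNA and RPA3. The rise of ORC6 is the only one of its direction, and the count of genes that rose was 0 to 2 when a library was left out, 0 at an adjusted p of 0.01 and 0 with glmTreat. Over all genes, an adjusted p of 0.01 left 2264 changed, 1097 higher and 1167 lower, and glmTreat 2305, of which 1107 higher. Signs turned only in genes that did not pass: DBF4 with upper-quartile scaling (0.0022), and with the replicate block GINS1 (0.016), DBF4 (0.027) and POLA2 (0.16). With a library left out, the fold change ranged from -0.23 to 0.014 for GINS1, -0.15 to 0.107 for DBF4, -0.27 to 0.191 for POLA2, -0.0089 to 0.19 for ORC3, -0.139 to 0.84 for PRIM2 and -0.080 to 0.18 for RFC4. The cause was not tested. Replicate numbers 2 to 4 gave no clear sign of pairing, with correlations of deviations of -0.0032 to 0.0152 between libraries of the same number. The siGLUT2 replicates 2 and 3 correlated best with the scrambled library of their own number, and replicate 4 did not. Correlations this small cannot settle whether the libraries were paired. With the replicate block 25 replication genes fell. Each of the 51 genes had 29 or more counts in each library; whether depth limits single calls was not tested.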

Other observations

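Lists around the replication genes are given as values, to be set beside the 14.4% of all tested genes that fell and the 13.9% that rose. Of 32 mitosis genes 24 fell (75%), with a median of -0.64, near that of the 51 replication genes. BUB3, a spindle checkpoint protein, had a fold change of -1.77 ± 0.12, NUSAP1 of -0.98 ± 0.11, ASPM of -0.96 ± 0.10 and TOP2A of -0.73 ± 0.08. Of 11 translesion and repair polymerase genes tested, 1 fell (9.09%), MAD2L2 (-1.16 ± 0.16), and 2 rose, REV3L (0.96 ± 0.19) and POLB (0.93 ± 0.25), and the median was -0.10. These counts are near the shares over all tested genes.

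Regulators of entry into S phase moved both ways. Of 16 tested E2F, pocket protein and partner genes 5 fell (31.2%) and 2 rose. TFDP1, the partner with which E2F proteins bind DNA, went from 107 ± 6.77 to 42.9 ± 7.7 CPM (-1.31 ± 0.14, adjusted p = 2.18e-07), and LIN52, of the DREAM complex, changed by -1.25 ± 0.30. The repressors E2F7 and E2F6 rose, from 35.0 ± 5.83 to 73.9 ± 11.6 CPM (1.08 ± 0.16, adjusted p = 2.4e-05) and from 33.4 ± 5.81 to 60.3 ± 2.67 CPM (0.85 ± 0.16), whereas E2F8, the repressor closest to E2F7, fell from 6.12 ± 2.39 to 1.34 ± 0.775 CPM (-2.18 ± 0.60, adjusted p = 0.00855), on 5 to 13 counts in each siGLUT2 library. E2F2 (-1.235 ± 0.36, adjusted p = 0.012) and the pocket protein gene RBL1 (-0.54 ± 0.17, adjusted p = 0.0221) also fell. E2F1 (-0.22 ± 0.15), E2F3 (0.20 ± 0.10), E2F4 (-0.05 ± 0.17) and E2F5 (0.20 ± 0.29) did not pass. Of 16 G1 cyclins, kinases and inhibitors 7 fell (43.8%) and 5 rose. The kinases CDK4 and CDK2 fell (-1.63 ± 0.13 and -1.15 ± 0.11), as did the inhibitor CDKN1C (-1.16 ± 0.10, from 355 ± 22.5 to 159 ± 24.3 CPM), while cyclin D1, CCND1, rose from 31.3 ± 9.45 to 108 ± 6.34 CPM (1.78 ± 0.18, adjusted p = 1.25e-07). The kinase CDK6 rose, from 602.5 ± 30.9 to 739.6 ± 47.95 CPM (0.30 ± 0.08, adjusted p = 0.00609). Of the other cyclins, CCNE2 (-1.115 ± 0.21), CCNE1 (-0.91 ± 0.30) and CCND3 (-0.47 ± 0.15) fell. CCND2 (0.99 ± 0.45) and CCNA2 (-0.30 ± 0.14) did not pass. Inhibitors moved in both directions. CDKN2C also fell (-0.89 ± 0.25, adjusted p = 0.0102), and CDKN1A (0.97 ± 0.28, adjusted p = 0.012, with overlapping groups), CDKN1B (0.89 ± 0.22, adjusted p = 0.00412) and CDKN2B (2.94 to 6.01 CPM in scrambled and 9.11 to 26.4 CPM in siGLUT2 libraries, adjusted p = 0.00205) rose. CDKN2A (0.13 ± 0.08) and CDKN2D (0.45 ± 0.35) did not pass. E2F1, E2F2, E2F3, E2F4, E2F5, E2F8, RBL1, CDK6, the cyclins other than CCND1 and the inhibitors other than CDKN1C were named after their values were seen.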
